A study of Mus musculus with 8 samples.

Results

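The amino acid transporters described here are 10 genes chosen by name out of 22180 genes measured on the arrays, namely Slc7a1, Slc7a3, Slc3a2, Slc7a5, Slc7a6, Slc7a11, Slc1a4, Slc1a5, Slc38a1 and Slc38a2. These genes, and the lists of related genes below, were chosen with earlier results of these data known. Their shares set beside all genes are therefore descriptive. Each of the 10 was represented by its brightest transcript cluster that carried a single gene symbol, judged by the mean over all 8 arrays. All 10 passed the filter on dim genes. The samples were CD4+CD25- spleen T cells from C57BL/6 mice, 6 to 8 weeks of age, which a cell sorter had divided into cells with high and with low CD45RB on the surface. CD45RB is a splice form of CD45, and T cells that have met antigen carry less of it than naive T cells. The 4 groups were wild-type CD45RBhigh, wild-type CD45RBlow, CCR2-/- CD45RBhigh and CCR2-/- CD45RBlow cells, with 2 arrays each. CCR2 is the receptor of the chemokine CCL2, and the labels give no allele and no number of mice behind a sample. All groups were cultured on plates coated with anti-CD3 and anti-CD28, for 48 h in the sample protocols and for 2 h in the series design, and unstimulated cells were not analysed here.

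T cells that are stimulated through their antigen receptor and CD28 grow before they divide, and they raise the import of amino acids for protein synthesis. System L transporters, which pair the heavy chain CD98 with a light chain, exchange glutamine for leucine and other large neutral amino acids and so feed mTORC1. ASC-type and system A transporters bring in alanine, serine and glutamine, cationic transporters bring in arginine and lysine, and system xc- exchanges glutamate for cystine, the source of cysteine for glutathione. Several of these genes are known targets of ATF4, a transcription factor whose translation rises when amino acids run short.

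The log2 values had array medians of 4.92 to 5.05, and both arrays of a group correlated across transcript clusters at r = 0.984 to 0.994. Cd4 was at 11.54 to 11.74 and Cd3e at 12.32 to 12.76 on all arrays. Of 6 regulatory T cell markers 4 rose in CD45RBlow cells, against 1.10% of all genes called higher. These were Foxp3 by 3.05, Ikzf2 by 2.49, Gpr83 by 1.23 and Ctla4 by 1.13 on the log2 scale. Il2ra (0.10, adjusted p = 0.591) and Nrp1 (0.42, adjusted p = 0.236) did not pass by limma. The mean level over the 6 regulatory T cell markers was 7.18 to 7.47 on CD45RBhigh arrays and 8.28 to 9.12 on CD45RBlow arrays. Ighm (-1.03) was the 1 of 5 tested B cell markers that fell, against 1.93% of all genes called lower. The other 4 also had lower means in CD45RBlow cells without passing. They were Cd79a (-0.90, levels 3.77 to 5.86), Cd79b (-0.81, levels 4.94 to 6.85), Ms4a1 (-0.46, levels 4.13 to 5.18) and Cd22 (-0.21, levels 3.96 to 5.08). Because 2 arrays at the 40th percentile sufficed for the test, a dim marker could enter through CD45RBhigh arrays alone. The shared direction of these markers is therefore no support. Pax5 and Blk, which were too dim to be tested, were at most 4.44 and 4.45. The mean of the B cell markers was 5.26 to 6.10 on CD45RBhigh and 5.00 to 5.12 on CD45RBlow arrays. Naaa (-0.73) fell among 2 tested dendritic cell markers, against the same 1.93% of all genes. The list mean was 4.88 to 4.98 on CD45RBhigh and 4.67 to 4.78 on CD45RBlow arrays, with Itgax at 3.93 to 4.14. No tested marker of NK cells (3), macrophages (1) or CD8 T cells (2) passed, although Cd8b1 differed by -0.92 between CD45RBlow and CD45RBhigh cells (adjusted p = 0.0776), and the mean of both CD8 T cell markers was 6.16 to 6.84 on CD45RBhigh and 5.80 to 5.93 on CD45RBlow arrays. The part of these cells in the transporter levels was not tested, and fewer cells of a type and less RNA per cell cannot be told apart.

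The first comparison set both sorted populations against each other, CD45RBlow minus CD45RBhigh, as the mean of the wild-type and CCR2-/- differences. Slc7a3, a transporter of cationic amino acids, and Slc1a4, a transporter of alanine, serine and cysteine, fell in CD45RBlow cells, by 5.37-fold and 2.52-fold. Slc7a11, the cystine transporter, was 3.70-fold lower without passing the test unless the replicate number was in the fit, and 2 of its CD45RBlow values lay near the array medians, so that this fold may understate the difference. The other 7 members lay within 0.32 log2 units of no difference. At an adjusted p under 0.05 limma called 2 of the 10 members, against 3.03% of all 13508 genes tested. Both were lower, against 1.93% of genes called lower, and 0 were higher, against 1.10%. With the replicate number as a block, 4 members were called, all lower, against 5.61% of genes in either direction and 3.66% lower. The median log2 difference of the members was -0.30, and that of all genes tested was -0.01. At an unadjusted p under 0.05 stood 5 of the 10 members and 18.1% of all genes. On 3 members, Slc7a3, Slc7a1 and Slc1a4, every CD45RBlow array lay below every CD45RBhigh array, which was the case for 8.13% of genes. The reverse held for 0 members and 6.13% of genes.

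**Figure D1:**
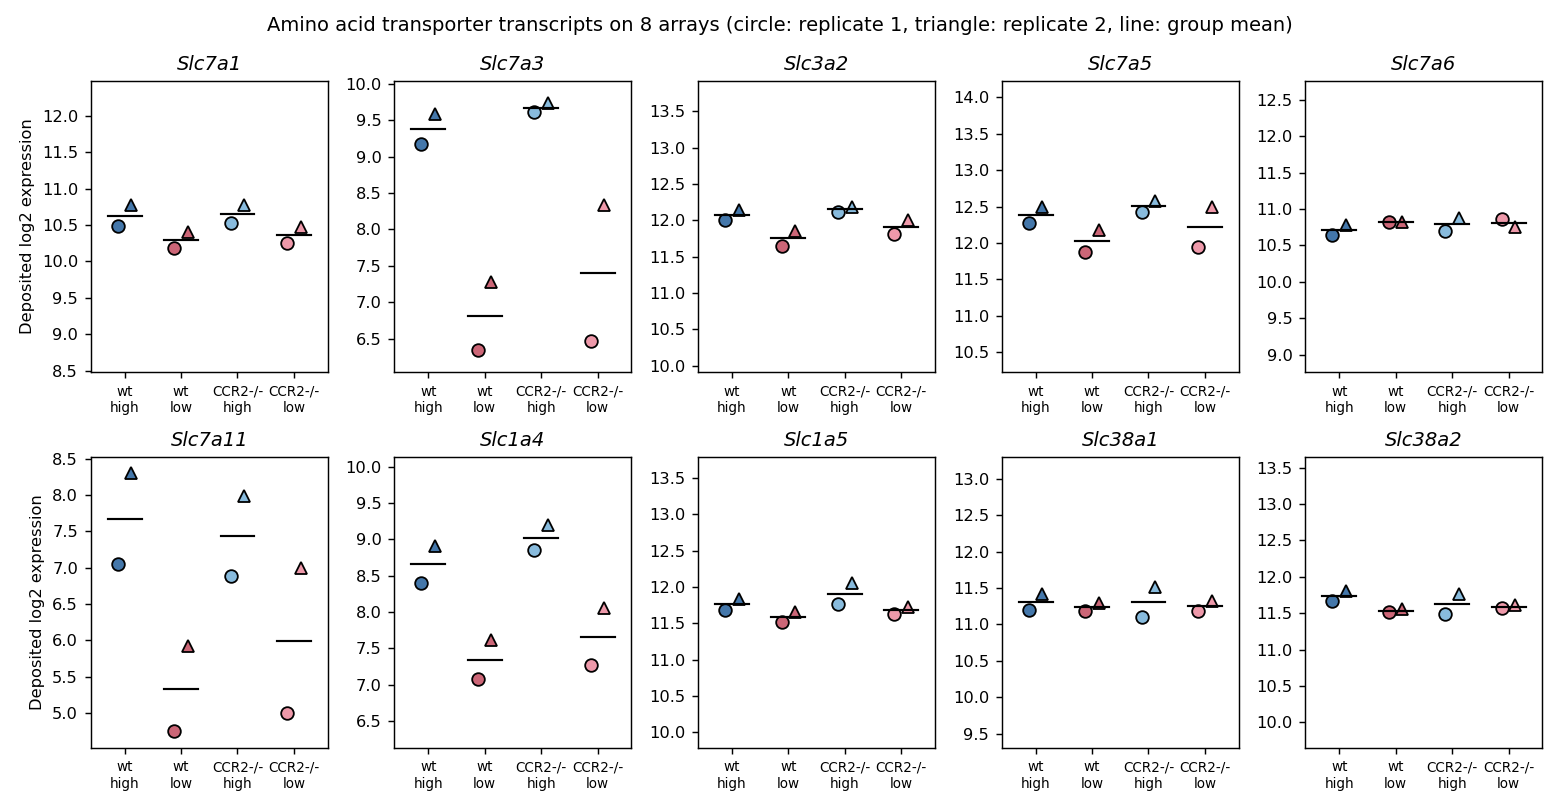
Deposited log2 expression of each transporter (vertical axis, every panel spanning the same number of log2 units) in the 4 groups (horizontal axis), where circles are replicate 1, triangles replicate 2 and lines the group means of 2 arrays. Slc7a3, Slc7a11 and Slc1a4 sit lower in the CD45RBlow groups of both genotypes, and the other 7 panels are nearly flat.

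The cationic transporters differed between the populations to unequal degrees. Slc7a3 encodes a cationic amino acid transporter of the same family as Slc7a1 and is best known from brain and embryonic stem cells. Its log2 level was 9.17 and 9.59 in wild-type CD45RBhigh cells, 9.61 and 9.74 in CCR2-/- CD45RBhigh cells, 6.34 and 7.28 in wild-type CD45RBlow cells, and 6.46 and 8.34 in CCR2-/- CD45RBlow cells (replicates 1 and 2). The CD45RBhigh arrays were close together, and the highest CD45RBlow array, CCR2-/- replicate 2, was still below all of them. The log2 difference was -2.42 (SE 0.40, 95% confidence interval -3.36 to -1.48, adjusted p = 0.0286), and adjusted p = 0.00573 with the replicate block. Group means ± SD (n = 2) were 6.81 ± 0.67 in wild-type and 7.40 ± 1.33 in CCR2-/- CD45RBlow cells, whose values overlapped, and 9.38 ± 0.29 in wild-type and 9.68 ± 0.09 in CCR2-/- CD45RBhigh cells, whose difference of 0.30 did not pass the test. Slc7a3 no longer passed when wild-type CD45RBhigh replicate 1 (adjusted p = 0.0791) or 2 (0.0973), or CD45RBlow replicate 1 (0.142) or 2 (0.0590) of wild type, was left out, with log2 differences from -2.89 to -1.95 over all 8 arrays left out in turn.

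Slc7a1, the cationic transporter that most tissues use for arginine uptake, was 10.49 and 10.77 in wild-type CD45RBhigh, 10.53 and 10.78 in CCR2-/- CD45RBhigh, 10.18 and 10.40 in wild-type CD45RBlow and 10.25 and 10.47 in CCR2-/- CD45RBlow cells. The populations were separate by a narrow margin, since the lowest CD45RBhigh array (10.49) was just above the highest CD45RBlow array (10.47). Its log2 difference was -0.32 (SE 0.11, interval -0.58 to -0.05, adjusted p = 0.193), and it passed with the replicate block (adjusted p = 0.0473). The log2 ratio of Slc7a3 to Slc7a1 on the same array was 2.11 lower in CD45RBlow cells, or a difference of -2.11, a value chosen after the levels were seen and given without a test.

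Slc3a2 encodes the heavy chain of CD98, which brings several light chains to the cell surface. Its level was about 12 and 12.14 in wild-type CD45RBhigh, 12.12 and 12.18 in CCR2-/- CD45RBhigh, 11.65 and 11.86 in wild-type CD45RBlow and 11.81 and 12.01 in CCR2-/- CD45RBlow cells. Only CCR2-/- CD45RBlow replicate 2 reached the lowest CD45RBhigh array, and the log2 difference was -0.28 (SE 0.09, interval -0.50 to -0.07, adjusted p = 0.157). Slc7a5, the system L light chain that carries leucine and other large neutral amino acids, had levels from 12.27 to 12.58 on CD45RBhigh arrays and from 11.87 to 12.49 on CD45RBlow arrays. The ranges overlapped through CCR2-/- CD45RBlow replicate 2, and the difference was -0.32 (SE 0.14, interval -0.65 to 0.02, adjusted p = 0.300). Both transcripts were at or above the 98.4th percentile of all clusters on every array.

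Slc7a6, a light chain that exchanges cationic for neutral amino acids, was the single member with a higher mean in CD45RBlow cells. Its 8 values lay between 10.64 and 10.88, with the populations overlapping throughout, and the log2 difference was 0.06 (SE 0.08, interval -0.13 to 0.25, adjusted p = 0.778). Slc7a6 was also the flattest member, with a range of 0.24 log2 units over all arrays.

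Slc7a11, the light chain of the cystine and glutamate exchanger, had the widest range of the members. Its log2 level was 7.05 and 8.30 in wild-type CD45RBhigh, 6.88 and 7.98 in CCR2-/- CD45RBhigh, 4.75 and 5.92 in wild-type CD45RBlow and 5.00 and 6.99 in CCR2-/- CD45RBlow cells. Within each replicate number the CD45RBlow arrays of both genotypes were below the CD45RBhigh arrays, while CCR2-/- CD45RBlow replicate 2 was above CCR2-/- CD45RBhigh replicate 1. The gap from CD45RBhigh to CD45RBlow was -2.30 and -2.38 in wild type and -1.87 and -0.99 in CCR2-/- cells. The averaged log2 difference was -1.89 (SE 0.53, interval -3.13 to -0.65, adjusted p = 0.113), and with the replicate block its SE was 0.15 and adjusted p = 0.00242. The CD45RBlow values of replicate 1 were at the 45.6th and 51.3rd percentile of their arrays, and the files used here hold no detection call to say whether they were above background. A second cluster of the gene stayed at 3.76 to 4.27, and differed by -0.11. Averaging both clusters gave a difference of -1.0.

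Slc1a4 encodes ASCT1, a sodium-dependent exchanger of small neutral amino acids. It was 8.40 and 8.91 in wild-type CD45RBhigh, 8.85 and 9.19 in CCR2-/- CD45RBhigh, 7.08 and 7.61 in wild-type CD45RBlow and 7.27 and 8.05 in CCR2-/- CD45RBlow cells. No CD45RBlow array reached a CD45RBhigh array. The gaps within a genotype and replicate number, from -1.58 to -1.14, were the most even among the 3 members with large differences. The log2 difference was -1.33 (SE 0.22, interval -1.84 to -0.83, adjusted p = 0.0280), and adjusted p = 0.00157 with the replicate block. Group means ran from 7.35 in wild-type CD45RBlow over 7.66 in CCR2-/- CD45RBlow and 8.66 in wild-type CD45RBhigh to 9.02 in CCR2-/- CD45RBhigh cells, and the arrays of both genotypes overlapped within each population. Slc1a4 no longer passed when any wild-type array was left out, with an adjusted p of 0.0577 or 0.0933 without CD45RBhigh replicate 1 or 2 and of 0.137 or 0.0577 without CD45RBlow replicate 1 or 2. The same held without CCR2-/- CD45RBlow replicate 1 (adjusted p = 0.0845).

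Slc1a5 encodes ASCT2, the glutamine transporter that activated T cells are known to rely on. It was 11.68 to 12.06 on CD45RBhigh and 11.52 to 11.73 on CD45RBlow arrays, which overlapped slightly, with a log2 difference of -0.20 (SE 0.10, interval -0.43 to 0.02, adjusted p = 0.328). A dimmer cluster of Slc1a5 differed by -0.16. The log2 ratio of Slc1a4 to Slc1a5 differed by -1.13 between the populations, again without a test.

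The system A transporters Slc38a1 and Slc38a2, which take up glutamine and alanine with sodium, differed least of the 4 neutral transporters. Slc38a1 lay between 11.10 and 11.51 and differed by -0.06 (SE 0.11, interval -0.33 to 0.21, adjusted p = 0.857), with the sign turned to 0.04 without CCR2-/- CD45RBhigh replicate 2. Slc38a2, whose transcript is known to rise when amino acids are withdrawn, lay between 11.49 and 11.81 and differed by -0.12 (SE 0.09, interval -0.33 to 0.09, adjusted p = 0.552). For both, the interval excludes the size of the fall in Slc1a4.

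**Figure D2:**
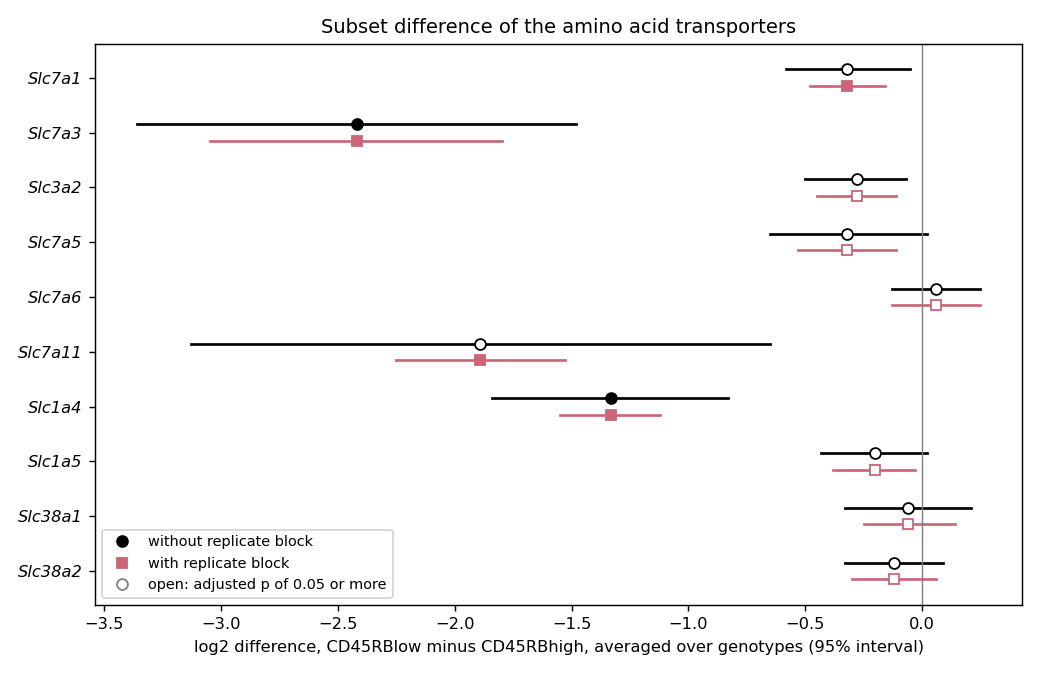
Log2 difference of CD45RBlow minus CD45RBhigh cells averaged over the genotypes (horizontal axis) for each transporter, with 95% confidence intervals from limma, without (black circles) and with (red squares) the replicate number as a block. Filled symbols passed an adjusted p of 0.05, which were 2 members without the block and 4 with it.

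Stretches before the start sites are printed for both members with a large difference that have a promoter entry, Slc7a11 and Slc1a4, and for 2 with a small difference, Slc38a2 and Slc3a2. They are given 5′ to 3′ on the strand of the gene, from RefSeq with build GRCm38.p6, and capitals mark matches to TGATGNAA, the core of the C/EBP-ATF response element that ATF4 is known to bind. The Slc1a4 stretch runs 10 bases past its start site, and the other 3 end at the last base before it.
Slc7a11, chr3:50443614-50443733, minus strand: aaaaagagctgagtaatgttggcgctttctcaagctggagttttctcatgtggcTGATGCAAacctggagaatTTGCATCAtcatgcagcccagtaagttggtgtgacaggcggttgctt
Slc1a4, chr11:20332704-20332833, minus strand: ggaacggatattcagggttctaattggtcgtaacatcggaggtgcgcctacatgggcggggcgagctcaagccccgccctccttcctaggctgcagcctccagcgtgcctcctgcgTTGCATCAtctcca
Slc38a2, chr15:96699729-96699848, minus strand: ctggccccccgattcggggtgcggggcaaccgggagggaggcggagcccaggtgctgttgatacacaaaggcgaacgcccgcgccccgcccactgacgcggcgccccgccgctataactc
Slc3a2, chr19:8713898-8714017, minus strand: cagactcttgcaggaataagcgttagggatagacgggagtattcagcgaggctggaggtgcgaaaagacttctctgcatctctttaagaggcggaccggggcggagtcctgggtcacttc

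Promoter windows of 300 bases, 250 before to 50 after a start site, were matched for 6 of the 10 members: Slc7a1, Slc3a2, Slc7a11, Slc7a6, Slc1a4 and Slc38a2. On both strands, TGATGNAA was found in 2 of these 6 genes, Slc7a11 and Slc1a4, and in 4.51% of all 27025 genes with a window (3.97% of 32851 windows). Slc7a11 held 2 matches, TGATGCAA at -66 to -59 and its reverse complement TTGCATCA at -47 to -40, and Slc1a4 held TTGCATCA at -4 to 4, counted from the start site with no base 0. The core of the antioxidant response element, TGACNNNGC, was found in Slc7a1, Slc7a6 and Slc38a2 and in 14% of genes (12.4% of windows). The E-box CACGTG was found in 0 of the 6 genes and in 8.09% of genes (7.15% of windows). No match of 1 motif overlapped a match of another in these genes. A match describes letters in this window and says nothing of binding. A window without a match does not show that the gene lacks the motif elsewhere. Slc7a3, the member with the largest difference, had no window. Whether the motif goes with the size of the difference was not tested.

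Within wild type, 0 of 10 members passed between CD45RBlow and CD45RBhigh cells, against 0.0888% of all genes, and 4 members and 9.22% of genes had an unadjusted p under 0.05. With the replicate block, Slc7a3, Slc7a11 and Slc1a4 passed, all lower, against 0.770% of genes in either direction and 0.489% lower. Slc7a3 differed by -2.57 (adjusted p = 0.209, and 0.0416 with the block), Slc7a11 by -2.34 (adjusted p = 0.365, and 0.0143 with the block) and Slc1a4 by -1.31 (adjusted p = 0.232, and 0.0143 with the block). Within CCR2-/- cells, 0 of 10 passed, against 0.333% of genes, and 2 members had an unadjusted p under 0.05, a share near the 12.3% of all genes. The same 3 members passed with the block, all lower, against 1.45% of genes in either direction and 0.925% lower, with differences of -2.28 for Slc7a3 (adjusted p = 0.163, and 0.0435 with the block), -1.43 for Slc7a11 (0.503 and 0.0332) and -1.36 for Slc1a4 (0.132 and 0.0129). The other 7 passed in neither genotype. Their differences in wild type and in CCR2-/- cells were -0.35 and -0.29 for Slc7a5, -0.34 and -0.30 for Slc7a1, and -0.32 and -0.24 for Slc3a2. They were -0.18 and -0.23 for Slc1a5, -0.21 and -0.03 for Slc38a2, -0.07 and -0.05 for Slc38a1, and 0.11 and 0.01 for Slc7a6.

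No member passed between the genotypes. In CD45RBhigh cells, limma called 0 of 10 members and 0% of all genes, with log2 differences of CCR2-/- minus wild type from -0.25 for Slc7a11 to 0.36 for Slc1a4. In CD45RBlow cells the count was again 0 of 10 and 0%, with differences from -0.01 for Slc7a6 to 0.66 for Slc7a11. Averaged over the populations, 0 of 10 and 0% passed, and the values ran from -0.03 for Slc38a2 to 0.44 for Slc7a3. Between these lay Slc38a1 (0.01), Slc7a6 (0.03), Slc7a1 (0.05), Slc3a2 (0.12), Slc1a5 (0.12), Slc7a5 (0.16), Slc7a11 (0.21) and Slc1a4 (0.34). The interval of the averaged genotype difference was -0.50 to 1.38 for Slc7a3, -1.03 to 1.45 for Slc7a11 and -0.17 to 0.84 for Slc1a4, and these intervals leave room for a change in either direction. With the replicate block the averaged interval for Slc1a4 was 0.12 to 0.55 (unadjusted p = 0.00785, adjusted p = 0.693). Within CD45RBhigh and within CD45RBlow cells it was 0.06 to 0.67 (unadjusted p = 0.0261) and 0.01 to 0.61 (unadjusted p = 0.0466). For Slc7a11 in CD45RBlow cells the block gave 0.15 to 1.17 (unadjusted p = 0.0183). By p with the block, Slc1a4 stood at rank 117 of 13508 genes averaged, 278 within CD45RBhigh and 545 within CD45RBlow cells. Slc7a11 stood at rank 177 within CD45RBlow cells. With the block, 0 members and 0 of all genes passed after adjustment in these comparisons. Without the block, 0 members and 354, 298 and 521 genes had a p under 0.05 in the 3 comparisons.

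The interaction asked whether the difference between the populations depended on the genotype. It passed for 0 of 10 members and 0% of genes, and at an unadjusted p under 0.05 stood 0 members and 160 genes. Slc7a11 had the largest value, 0.91 (SE 1.06, interval -1.57 to 3.39), followed by Slc7a3 with 0.29 (SE 0.80, interval -1.59 to 2.17). Slc1a4 had -0.05 (SE 0.43, interval -1.07 to 0.97). The other 7 lay between -0.10 for Slc7a6 and 0.17 for Slc38a2, with Slc1a5 at -0.05, Slc38a1 at 0.03, Slc7a1 at 0.04, Slc7a5 at 0.06 and Slc3a2 at 0.07. With the replicate block the interval for Slc7a11 was 0.19 to 1.63 (unadjusted p = 0.0209), which did not pass after adjustment. By that p Slc7a11 stood at rank 95 of 13508 genes, of which 0 passed. The signs for Slc7a3 and Slc7a11 rested on 1 array: without CCR2-/- CD45RBlow replicate 2 the values were -0.65 and -0.09.

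The replicate number moved with the transporters as well. In all 4 groups the array of replicate 2 was above that of replicate 1 for 9 of 10 members, all but Slc7a6, against 16.8% of all genes, and 0 members were below in all 4, against 9.19%. The mean gap was 1.38 log2 units for Slc7a11, 0.84 for Slc7a3, 0.54 for Slc1a4 and 0.05 to 0.31 for the other 7. The populations differed within both numbers: Slc7a3 by -2.99 in replicate 1 and -1.86 in replicate 2, Slc7a11 by -2.09 and -1.69, and Slc1a4 by -1.45 and -1.22. Xist, the transcript of the inactive X chromosome of females, was at 4.45 to 5.02 on replicate 1 and 11.74 to 12.07 on replicate 2 arrays. Slc7a3 lies on the X chromosome, and the part of sex in its level was not tested. No label says what the number marks.

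Among other amino acid transporters, 23 of 49 listed genes were tested, 2 rose and 0 fell, against 1.10% of all genes called higher and 1.93% called lower, and the median was -0.01. Slc38a6 rose by 0.60 log2 units (adjusted p = 0.0460) and Slc25a13, the mitochondrial exchanger of aspartate and glutamate, by 0.48 (adjusted p = 0.0488). Slc7a7, the other light chain of the type of Slc7a6, differed by -0.43 (adjusted p = 0.104).

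Some genes of the amino acid response fell as Slc7a3 and Slc1a4 did, while most of those listed did not pass without the replicate block. The lists were chosen with earlier results of these data known, so their shares are not independent support. Of 20 tested genes of the ATF4 list 6 fell and 0 rose, against 1.93% of all genes called lower, and the list median was -0.53. With the replicate block 11 fell, against 3.66% of all genes. The 6 that fell without the block were Ddit3, which encodes CHOP (-1.41), Vldlr (-1.24), Asns, asparagine synthetase (-1.14), Herpud1 (-0.94), Eif4ebp1, an inhibitor of translation initiation (-0.87), and Nupr1 (-0.73). Atf4 itself differed by -0.27 (adjusted p = 0.326). Of 26 genes of amino acid metabolism 6 fell and 0 rose, with 8 lower under the block, and the median was -0.23. Those that fell were Aldh1l2 (-2.05), Pck2 (-2.04), Gpt2, a mitochondrial alanine transaminase (-1.91), Cth, which makes cysteine from cystathionine (-1.34), Mthfd2 (-0.66) and Aldh18a1, which starts proline synthesis (-0.60). Among 18 aminoacyl-tRNA synthetases Cars (-0.96) and Sars (-0.64) fell and 0 rose, 7 fell with the block, and the median was -0.26.

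The other 3 lists cover glutathione, the sensing of amino acids by mTORC1, and Myc. Of 10 genes of glutathione synthesis and NRF2 0 passed by limma, and 2 had an unadjusted p under 0.05, a share near the 18.1% of all genes. With the replicate block 1, Txnrd1, rose, against 5.61% of all genes called in either direction. Txnrd1 differed by 0.38 (adjusted p = 0.235) and Srxn1 by 0.26 (adjusted p = 0.265). Rragd, a Rag GTPase that recruits mTORC1 to the lysosome, rose by 0.74 (adjusted p = 0.0224), as the only 1 of 25 genes of mTORC1 amino acid sensing, a share near the 3.03% of all genes called. None of 7 genes of the Myc family passed. Myc, a driver of transporter expression in activated T cells, differed by -0.12 (adjusted p = 0.641) and Mxd1 by -0.28 (adjusted p = 0.418).

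**Figure D3:**
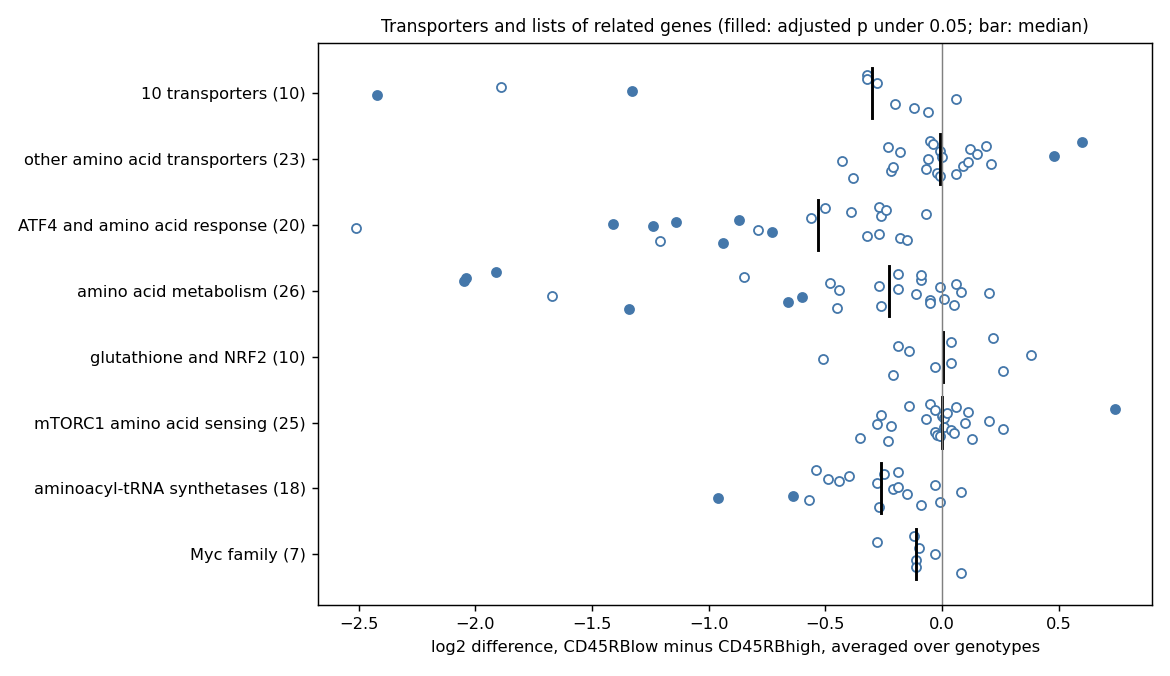
Log2 difference of CD45RBlow minus CD45RBhigh cells averaged over the genotypes (horizontal axis) for each tested gene (points, filled where the adjusted p was under 0.05) of the 10 transporters and of 7 lists of related genes, with the number of tested genes in brackets and the list median as a bar. Filled points left of zero lie in the transporters, the ATF4 list, amino acid metabolism and the synthetases.

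The genes whose profiles over the 8 arrays were most like those of Slc7a3 and Slc1a4 were found by the root mean square difference of log2 levels after each gene was centred on its own mean. For Slc7a3, whose own root mean square deviation was 1.35, they were Pck2 (0.21), Gpt2 (0.30), Chac1, a glutathione-degrading enzyme (0.34), Amigo2 (0.40) and Slc7a11 (0.47). Pck2 was 8.75 to 9.46 on CD45RBhigh arrays and 6.29, 7.30, 6.50 and 8.26 on the CD45RBlow arrays of wild-type replicates 1 and 2 and CCR2-/- replicates 1 and 2. Pck2 had its highest CD45RBlow value on the same array as Slc7a3, which follows largely from its choice by likeness over these arrays. For Slc1a4, with a deviation of 0.74, they were Gtpbp2 (0.12), Unc93b1, which escorts Toll-like receptors to endosomes (0.14), Ddit3 (0.16), Asns (0.17) and Rab34 (0.18). Likeness over these arrays describes levels alone.

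**Figure D4:**
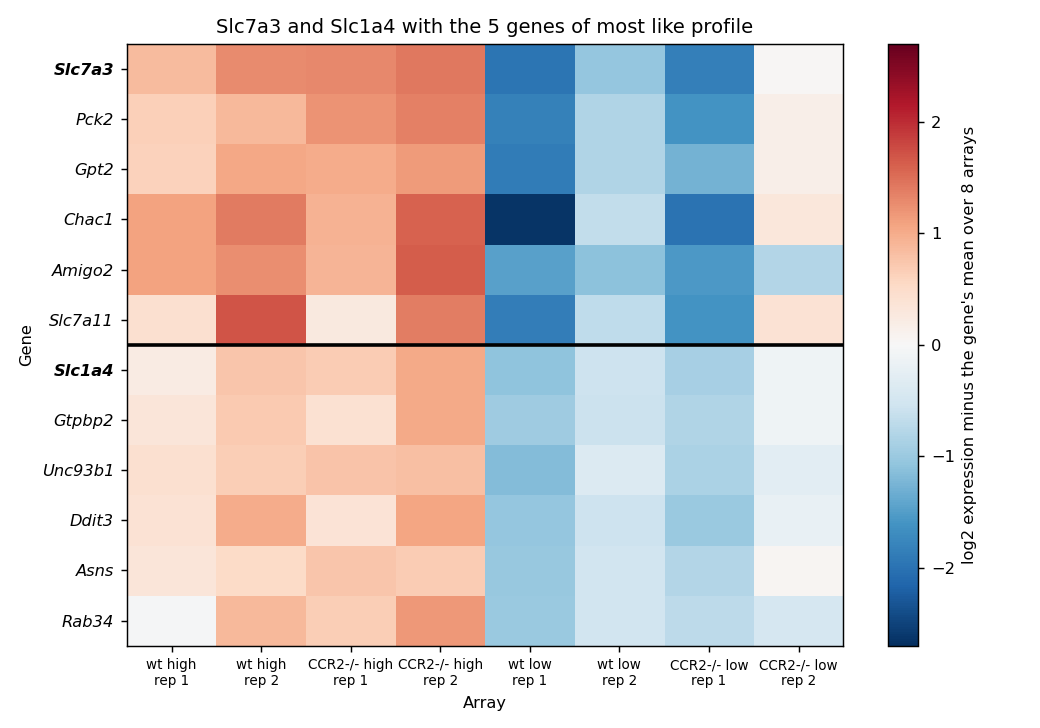
Log2 expression minus each gene's mean over 8 arrays (colour) for Slc7a3 and Slc1a4 and the 5 genes most like each (rows), by array (columns, CD45RBhigh on the left). The CD45RBhigh mean is above the CD45RBlow mean in all rows, which follows largely from the choice of the rows by likeness. CCR2-/- CD45RBlow replicate 2 stands closest to zero among the CD45RBlow arrays for Slc7a3 (8.34 against 6.34 to 7.28).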

How the data were processed

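The deposited values are log2 expression of 41034 transcript clusters on 8 one-colour arrays, for which the submitters' processing notes name RMA and Partek; labelling started from 200 ng of total RNA, per the labels' protocols. Versions and options are not given in the sources used here. Because RMA equalizes the arrays' distributions, a shift of nearly all genes together cannot be seen. Clusters were named from the platform's annotation, 23521 of them with 1 symbol and 1814 with several, and 15699 unnamed here. The brightest cluster stood for a gene. Probes differ in response, so percentiles and log2 ratios between genes describe signal, not relative transcript amounts. The test took in 13508 genes, those reaching the 40th percentile of 2 or more arrays.

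The model, in limma 3.58.1 (R 4.3.3), had 1 mean per group over the 8 arrays, with 4 residual and 3.36 prior degrees of freedom, and gave 7 comparisons. P-values are two-sided and adjusted by Benjamini-Hochberg over all genes tested, with a threshold of 0.05. The number of arrays limits the precision: the median SE was 0.15 between groups and 0.10 for averaged effects. The labels do not state whether replicates are separate animals. Xist was at 4.45 to 5.02 on replicate 1 and 11.74 to 12.07 on replicate 2 arrays, so both arrays of a group were not repeats of 1 RNA sample. The p-values reflect only the spread between these samples. Without the block, that spread includes the difference between the replicate numbers, and part of it may be technical. Titles number the second array of each group, and unnumbered arrays were taken as replicate 1. Differences of replicate 2 from replicate 1 correlated between all 6 pairs of groups (r = 0.11 to 0.53), which does not show that single samples were paired. The main fit had no block. The number was therefore taken as a block in an alternative fit, whatever it marks, and that fit is given where it changes a call. The calculations were tested on simulated arrays.

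By rule, the 10 members were to be named in every comparison (in the genotype comparisons within 1 population only the extremes are printed), with up to 8 passing genes of each list, or the 2 with the smallest p, and the 5 genes most like each member that passed; genes outside that rule (Atf4, Slc7a7, Foxp3 and other markers) were named after their values were seen. The members and lists were chosen with earlier results of these data known. Alternatives were the block, 2 filters, 2 scalings, averaged clusters, array weights, trended robust variances and each array left out.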

Additional observations from a re-analysis of the deposited data

How the results depend on the processing

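Of the averaged difference between populations, 2 members were called under 7 alternatives (both filters, quantile normalization, median centring, averaged clusters, array weights, and trended robust variances), 4 with the replicate block, and 0 to 2 without single arrays. Over all genes the count was 409, with 758 under the replicate block and 39 to 524 without single arrays. Within wild type and within CCR2-/- cells 0 members were called except with the replicate block, which called 3 in each; no single array left out gave a call (0 to 0). Genes called in wild type were 12, against 104 with the block, 19 with the stricter filter, 24 with median centring, 116 with array weights, 31 with trended robust variances and 1 to 54 without single arrays. In CCR2-/- cells they were 45, against 196, 90, 83, 7, 69 and 1 to 84. Genotype and interaction counts stayed at 0 in all alternatives, and the block changed no other call of a member.

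Signs turned only in differences that did not pass, the cause not being tested beyond the smaller number of arrays. With averaged clusters Slc1a5 in wild type was 0.00. Without single arrays, Slc38a1 ran from -0.16 to 0.04 averaged, -0.18 to 0.04 in wild type and -0.25 to 0.16 in CCR2-/- cells, where Slc7a6 ran from -0.07 to 0.10 and Slc38a2 from -0.17 to 0.10. The genotype difference in CD45RBhigh cells ran from -0.87 to 0.38 for Slc7a11, and its lowest member value from -0.87 to 0.01. In CD45RBlow cells it ran from -0.36 to 1.52 for Slc7a3, -0.33 to 1.66 for Slc7a11 and -0.08 to 0.70 for Slc1a4. Averaged, it ran from -0.29 to 0.71 for Slc7a11 and -0.03 to 0.91 for Slc7a3, and the lowest member value from -0.29 to 0.03; without wild-type CD45RBhigh replicate 2 that value was 0.00. The interaction ran from -0.65 to 1.23 for Slc7a3, -0.09 to 1.90 for Slc7a11 and -0.44 to 0.34 for Slc1a4.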
